A study of Nothobranchius furzeri with 3 samples.

Results

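The genes described here are the matrix metalloproteinases mmp13a, mmp13b, mmp9, mmp2, MMP14A, MMP14B and mmp11a and the tissue inhibitors of metalloproteinases TIMP2A, TIMP3 and TIMP4 of the turquoise killifish Nothobranchius furzeri. These 10 genes were chosen by their symbols from the 22954 genes of the count table, 7 proteases and 3 inhibitors, with results of these libraries already known. The values used in that choice include the mmp13a counts of the aged (Tm) libraries. The values of the 10 genes are therefore a description. Where the fit called them this is given beside the share of all genes called, and nothing is read from it.

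RNA was read by photo-isolation chemistry (PIC), in which primers for reverse transcription are blocked by a light-sensitive group and released by UV light. Here the light was directed at the basal epidermis, at cells stained for p63. The methods of the study name sections of trunk and fin, and a figure legend of the study names the fin. Aged (Tm) fish, labelled Aged_Tnc, were kept in tunicamycin at 1 µg/mL, overnight by the labels and for a full day by the methods of the study. Tunicamycin is an inhibitor of N-linked glycosylation that causes stress in the endoplasmic reticulum. There were 3 aged (Tm) libraries. Aged controls (n = 4) and young controls (n = 4) were kept in DMSO. All fish were of the GRZ-AD strain according to the methods of the study. The labels name no allele or transgene and no ages or sexes, and do not say whether the replicates of a group came from different fish, so the spread between libraries may be technical.

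Matrix metalloproteinases are zinc-dependent enzymes that cut collagens and other proteins of the extracellular matrix. Most are secreted as inactive proenzymes and work only after the propeptide is removed, and TIMP proteins block their active site. In zebrafish, mmp13a and mmp9 are known from the epidermis of injured and regenerating fins, where the basal layer lies on the basement membrane.

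Total counts of unique molecular identifiers (UMIs, which mark single RNA molecules) ranged from 319223 to 705538 in aged (Tm), from 37655 to 265509 in aged and from 35366 to 298033 in young libraries. Levels are given in CPM, counts per 1000000 counts of the library, which are not corrected for gene length. The keratinocyte gene krt5 and tp63, which encodes p63, were detected in each group, and the 8 basal keratinocyte markers summed to 15696 to 21355 CPM in aged (Tm), 27818 to 34152 CPM in aged and 24353 to 60369 CPM in young libraries. Within this list the keratin genes krt5 (means of 9059 CPM in aged (Tm), 24614 CPM in aged and 33828 CPM in young libraries) and krt15 were lowest in aged (Tm), while epcam (4472 CPM in aged (Tm), 1984 CPM in aged and 2285 CPM in young libraries), tp63 (1491, 911 and 1072 CPM in the same groups), itgb4 and ITGA6 were highest there. ITGA6A of the same list was lowest in aged (Tm), unlike ITGA6, with means of 12.3, 70.0 and 27.3 CPM in the same groups. The remaining gene, cldni, had 3, 0 and 4 counts. Markers of other cells were present too. Of these the skeletal muscle list summed highest. It gave 4461 to 6934 CPM in aged (Tm), 5548 to 23450 CPM in aged and 22078 to 88927 CPM in young libraries. The fibroblast list gave 277 to 985, 701 to 1759 and 6079 to 10423 CPM in the same groups. The suprabasal keratinocyte list gave 1250 to 1872, 195 to 1314 and 368 to 1829 CPM. The macrophage list summed to 262 to 459 CPM in aged (Tm), 266 to 532 CPM in aged and 170 to 599 CPM in young libraries, and the neutrophil list to 135 to 242, 77.9 to 338 and 226 to 430 CPM in the same groups. The 11 libraries carried 4 sample barcodes, 3 of them listed for all 3 groups, so the groups were separate pools, and pool and condition cannot be told apart. In such samples more cells of a type and more RNA per cell cannot be told apart either.

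mmp13a (ENSNFUG00015016769, on the sequence named sgr11 in the table) encodes collagenase 3, which cuts fibrillar collagen. It was the most abundant of the 10 genes in counts, with 7168 of its 7196 counts in the aged (Tm) libraries. Aged (Tm) replicates 1, 2 and 3 held 3560, 2662 and 946 counts of it, or 10261, 8339 and 1341 CPM. Aged replicates 1 to 4 held 2, 8, 0 and 10 counts, or 53.1, 30.1, 0 and 55.5 CPM. Young replicates 1 to 4 held 3, 2, 0 and 3 counts, or 28.1, 14.5, 0 and 10.1 CPM. Every aged (Tm) library lay above every aged and young library, and the aged and young libraries overlapped. In aged (Tm) replicate 1 no gene had more counts than mmp13a, which took 1.03% of that library (95% interval 9928 to 10602 CPM, exact binomial, counting error only). In aged (Tm) replicates 2 and 3 it ranked 6 and 138 and took 0.834% and 0.134% of the counts.

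The 2 libraries with no mmp13a count were small. A count of 0 still allows 58.5 CPM in aged replicate 3 and 84.8 CPM in young replicate 3, taking 3 counts as the limit. When every library was thinned at random to 35366 counts, the aged (Tm) libraries kept 365, 295 and 47 counts of mmp13a, against 2, 2, 0 and 4 in aged and 1, 1, 0 and 0 in young libraries. The thinned values come from the counts that entered the choice of genes and are a description only.

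Group means of mmp13a were 6647 ± 4695 CPM in aged (Tm), 34.7 ± 25.8 CPM in aged and 13.2 ± 11.6 CPM in young libraries (SD, n = 3, 4 and 4). In the edgeR fit of all 11 libraries, with TMM scaling and 3963 genes tested, the log2 fold change was 8.03 (SE 1.09) for aged (Tm) over aged and 9.24 (SE 1.17) for aged (Tm) over young. The ratio of summed counts per summed depth was 140 for aged (Tm) over aged, with a 95% interval for counting error of 90.4 to 229. For aged over young the log2 fold change was 1.21 (SE 1.03) and the summed ratio 2.70 (1.14 to 7.09), from 20 counts in aged and 8 in young libraries. That interval covers counting error only, and the fitted difference between aged and young libraries was not much larger than its standard error.

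**Figure D1:**
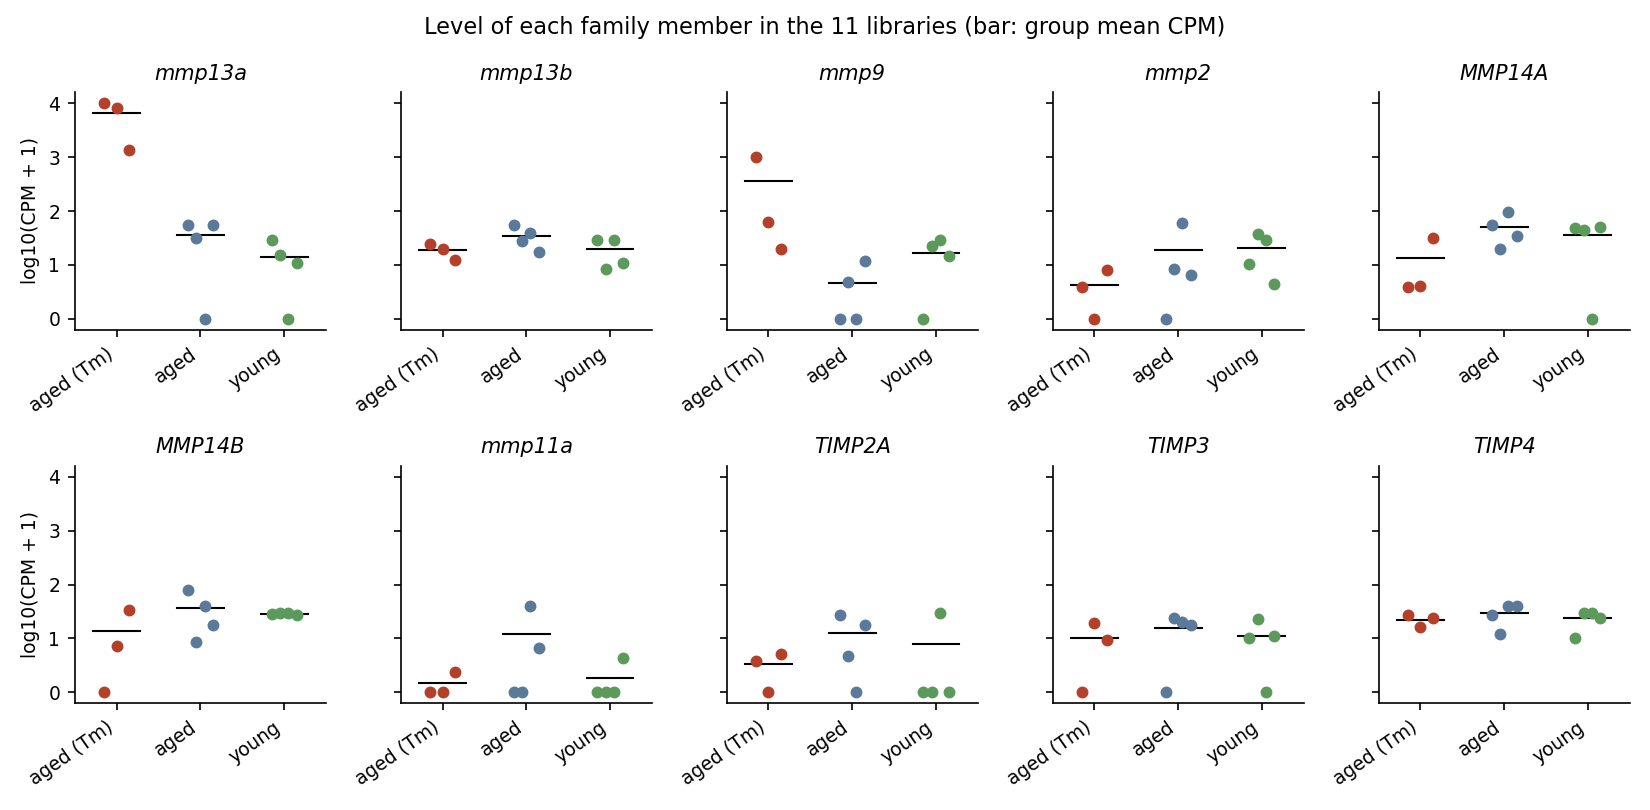
Levels of the 7 metalloproteinases and 3 TIMPs, as log10 of CPM plus 1, in the 3 aged (Tm), 4 aged and 4 young libraries, where each point is a library and each bar the logarithm of the group's mean CPM plus 1. The 3 aged (Tm) points of mmp13a lie at 1341 CPM or more, above every control library, those of mmp9 lie above the aged libraries but overlap the young ones, and the groups overlap for the other 8 genes.

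The aged (Tm) libraries differed widely among themselves. The highest mmp13a level in this group was 7.65 times the lowest, whereas the median gene of at least 100 CPM in these libraries had a ratio of 1.69. Of 1293 such genes, 38 (2.94%) had a ratio at least as large as that of mmp13a. Replicate 3, which had the lowest mmp13a level, was the lowest library for 40.8% of these genes and had the most counts in total. Marker sums also differed between aged (Tm) replicates 1, 2 and 3. The fibroblast list, at 277, 376 and 985 CPM, had the reverse order of mmp13a. The basal keratinocyte list, at 21355, 17831 and 15696 CPM, had the order of mmp13a over a narrower range. The suprabasal keratinocyte list (1689, 1250 and 1872 CPM) and the skeletal muscle list (4822, 4461 and 6934 CPM) had neither order. Their part in the mmp13a difference was not tested. hspa5, which encodes the chaperone BiP and rises under stress in the endoplasmic reticulum, was even across the same libraries, with 464, 489 and 424 CPM in aged (Tm), against 106, 56.5, 175 and 66.5 CPM in aged and 65.5, 94.5, 28.3 and 53.7 CPM in young libraries.

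The highest count of any gene was 3560, 3527 and 4317 in the aged (Tm) libraries and lay between 1212 and 4337 in the 11 libraries, a narrower range than that of the total counts. The length of the UMIs is not given in the sources used here. Whether a ceiling on the number of UMIs lowered the count of mmp13a in the aged (Tm) libraries was not tested.

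mmp13b (ENSNFUG00015005558) is the paralog of mmp13a, and its level did not resemble that of mmp13a. It had 44 counts in all, with 23.1, 18.8 and 11.3 CPM in aged (Tm), 53.1, 26.4, 39.0 and 16.6 CPM in aged and 28.1, 7.27, 28.3 and 10.1 CPM in young libraries. The 3 groups overlapped, and the highest level was that of aged replicate 1, which rested on 2 counts. How sequences shared between such paralogs were assigned was not tested, since no genome was used here.

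mmp9 (ENSNFUG00015022858) encodes gelatinase B, which cuts denatured collagen and basement membrane collagen. Aged (Tm) replicates 1, 2 and 3 held 355, 20 and 13 counts, or 1023, 62.7 and 18.4 CPM. Aged replicates 1 to 4 held 0, 1, 0 and 2 counts, or 0, 3.77, 0 and 11.1 CPM. Young replicates 1 to 4 held 0, 3, 1 and 4 counts, or 0, 21.8, 28.3 and 13.4 CPM. The aged (Tm) libraries lay above all aged libraries, but aged (Tm) replicate 3 lay below young replicates 2 and 3. Of the 388 counts in aged (Tm), 355 came from replicate 1, and the highest level in the group was 55.5 times the lowest. The summed ratio of aged (Tm) over aged was 50.4 (95% interval for counting error 17.1 to 246), and that of aged (Tm) over young was 20.4 (10.3 to 47.7), both carried mostly by that library. mmp9 did not pass the filter on low counts. In an edgeR fit with no such filter its log2 fold change was 7.04 (SE 0.95) for aged (Tm) over aged and −1.32 (SE 1.11) for aged over young. The SE over aged was larger in other fits. With a filter of 10 counts in 3 libraries edgeR gave 6.35 (SE 1.20), and DESeq2 gave 7.14 (SE 1.69).

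The order of the 3 aged (Tm) libraries was the same for mmp9 and mmp13a. Replicate 1 was the highest and replicate 3 the lowest, an order held by 18.7% of the 1293 genes of at least 100 CPM. The step between replicates 1 and 2 was small for mmp13a and large for mmp9.

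mmp2 (ENSNFUG00015021127) encodes gelatinase A, and MMP14A (ENSNFUG00015000298) and MMP14B (ENSNFUG00015007461) encode membrane-anchored enzymes whose mammalian counterpart activates pro-MMP2. mmp2 had 20 counts in all, with 2.88, 0 and 7.09 CPM in aged (Tm), 0, 7.53, 58.5 and 5.55 CPM in aged and 9.36, 36.3, 28.3 and 3.36 CPM in young libraries. MMP14A had 68 counts, with 2.88, 3.13 and 31.2 CPM in aged (Tm), 53.1, 18.8, 97.4 and 33.3 CPM in aged and 46.8, 43.6, 0 and 50.3 CPM in young libraries. MMP14B had 51 counts, with 0, 6.27 and 32.6 CPM in aged (Tm), 79.7, 7.53, 39.0 and 16.6 CPM in aged and 28.1, 29.1, 28.3 and 26.8 CPM in young libraries. For both mmp14 genes aged (Tm) replicate 3 was the highest of its group, the reverse of mmp13a and mmp9, and 22 of the 24 aged (Tm) counts of MMP14A and 23 of the 25 of MMP14B came from it. The groups overlapped for all 3 genes. The summed ratio of aged (Tm) over young for MMP14A was 0.389 (95% interval for counting error 0.214 to 0.705), and that of aged (Tm) over aged was 0.520 (0.271 to 1.02).

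mmp11a (ENSNFUG00015013546) encodes stromelysin 3, which in mammals is activated by furin inside the cell. It was close to the detection limit, with 1 count in the aged (Tm), 3 in the aged and 1 in the young libraries. No difference was detectable at this depth.

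The TIMPs were detected at low levels in all groups. TIMP2A (ENSNFUG00015005961), whose mammalian counterpart also takes part in pro-MMP2 activation, had 4 counts in aged (Tm), 5 in aged and 1 in young libraries. TIMP3 (ENSNFUG00015019689), which is bound to the matrix in mammals, had 12, 10 and 7 counts in the same groups, with 0, 18.8 and 8.50 CPM in aged (Tm), 0, 22.6, 19.5 and 16.6 CPM in aged and 9.36, 21.8, 0 and 10.1 CPM in young libraries. TIMP4 (ENSNFUG00015004756) had 56 counts, with 25.9, 15.7 and 22.7 CPM in aged (Tm), 26.6, 11.3, 39.0 and 38.8 CPM in aged and 9.36, 29.1, 28.3 and 23.5 CPM in young libraries. It was the inhibitor with the most counts and, like mmp13b, was seen in all 11 libraries. The groups overlapped for each TIMP. The summed ratio of aged (Tm) over aged was 0.312 for TIMP2A (0.0619 to 1.45), 0.468 for TIMP3 (0.185 to 1.21) and 0.900 for TIMP4 (0.455 to 1.88), and each of these 95% intervals for counting error includes equality.

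Of the 10 genes, mmp13a passed the filter on low counts and the other 9 did not. It passed through the aged (Tm) libraries, since no control library held more than 10 counts of it, so that its being tested and its difference are not independent. In aged (Tm) against aged libraries 1 of the 10 genes, mmp13a, was called higher at an adjusted p below 0.1, where 18.5% of the 3963 tested genes were called higher and 20.2% lower. In aged (Tm) against young libraries again mmp13a was called higher, where 15.9% of tested genes were called higher and 13.2% lower. In aged against young libraries edgeR and limma voom tested only mmp13a of the 10 genes and did not call it. In edgeR 0.0757% of tested genes were called higher and 0.631% lower. DESeq2 gave an adjusted p only for mmp13a and mmp9 and called neither. In the edgeR fit with no filter on low counts, which tested all 10 genes, 0 had an unadjusted p below 0.05. Without the filter, mmp13a and mmp9 were the 2 of the 10 genes called higher in aged (Tm) against both controls, where 6.12% of all 22954 genes were called higher against aged and 4.60% against young libraries. The genes were selected with these contrasts known, so nothing is read from these counts.

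The scaling of the libraries moved the balance of all calls. Of the tested genes, 733 were higher and 801 lower in aged (Tm) against aged libraries with TMM, 960 and 659 with RLE scaling, and 370 and 1025 with total counts alone. The median log2 fold change of all tested genes was −0.03, 0.18 and −0.58 in these fits, and that of mmp13a was 8.03, 8.34 and 7.26, far above each median. In aged (Tm) against young libraries the higher and lower calls were 632 and 523 with TMM, 868 and 377 with RLE, and 346 and 474 with total counts. In aged against young libraries they were 3 and 25 with TMM and 3 and 11 with total counts.

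**Figure D2:**
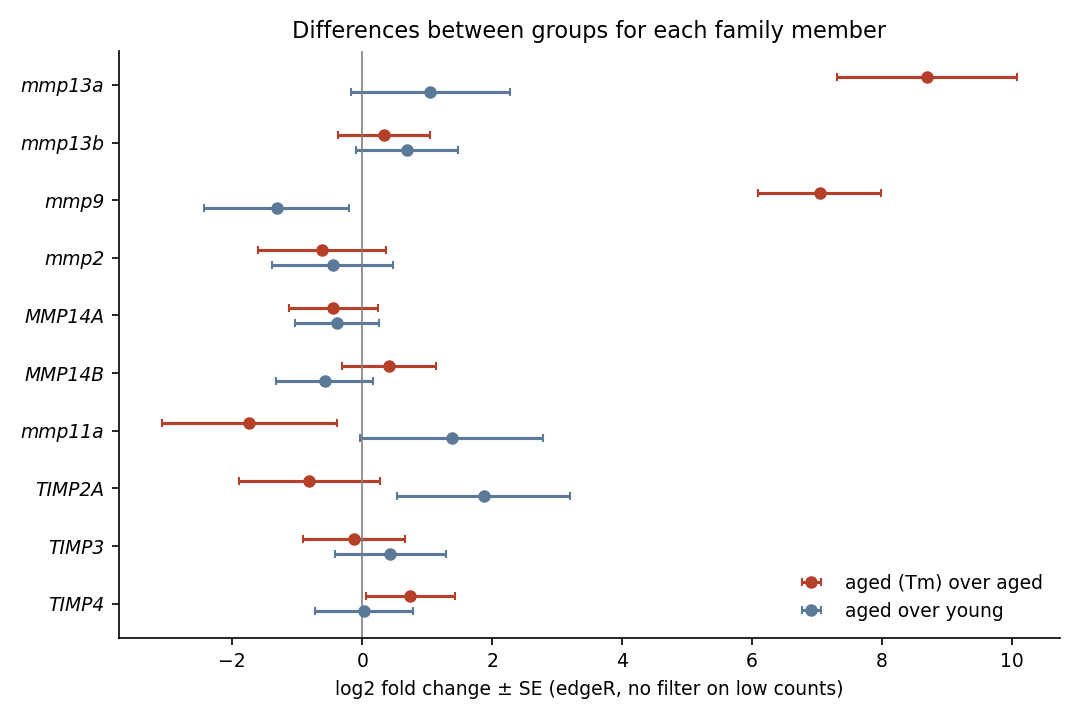
log2 fold change with its approximate SE, calculated from the F statistic (horizontal axis), for each of the 10 genes, in red for aged (Tm) over aged and in blue for aged over young, from the edgeR fit with no filter on low counts. mmp13a and mmp9 lie at 8.69 and 7.04 for aged (Tm) over aged, and the other 8 genes between −1.74 and 0.74.

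In the fit with no filter, the other 8 genes had log2 fold changes for aged (Tm) over aged between −1.74 (mmp11a, SE 1.35) and 0.74 (TIMP4, SE 0.69). The sign depended on the scale for some of them. For mmp13b the fitted log2 fold change was 0.33 (SE 0.71) with TMM scaling, while its summed ratio per total count was 0.613 (95% interval for counting error 0.300 to 1.29). No direction is therefore given for these genes.

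mmp13a was then set against the other proteases within each library, which needs no scaling between libraries. It made up 90.7%, 98.9% and 92.9% of the counts of the 7 metalloproteinases in aged (Tm) replicates 1, 2 and 3. The share was 22.2%, 32.0%, 0% and 38.5% in aged replicates 1 to 4 and 20.0%, 9.52%, 0% and 8.57% in young replicates 1 to 4. The exact binomial 95% intervals ran from 89.7% to 99.3% over the aged (Tm) libraries and nowhere exceeded 60.2% in the controls. Summed over libraries, mmp13a gave 93.9% of 7634 protease counts in aged (Tm), 27.0% of 74 in aged and 10.7% of 75 in young libraries. The 5 proteases other than mmp13a and mmp9 gave 78 counts in aged (Tm), 51 in aged and 59 in young libraries, or 28.8, 28.2 and 83.6 CPM in aged (Tm) replicates 1, 2 and 3, 60.3 to 273 CPM in aged and 84.8 to 116 CPM in young libraries. In these CPM, which unlike the shares depend on the scaling between libraries, their aged (Tm) and aged libraries overlapped. The aged (Tm) libraries lay below the young ones, though by as little as 83.6 against 84.8 CPM. The latter value, of young replicate 3, rested on 3 counts. TMM factors were 1.05 for aged (Tm) replicate 3 and 1.23 for young replicate 3, so this order depends on the scale.

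The 3 TIMPs together summed to 28.8, 34.5 and 35.4 CPM in aged (Tm), 53.1, 37.7, 58.5 and 72.1 CPM in aged and 18.7, 50.9, 56.6 and 33.6 CPM in young libraries. In CPM the aged (Tm) values lay just below the aged values and within the range of the young ones. TMM factors of aged (Tm) replicates 1 and 2 were 0.616 and 0.646, lower than those of all aged libraries. The order of aged (Tm) and aged libraries therefore depends on the scale, and no direction is given for the summed TIMPs. The summed TIMP counts were 46 in aged (Tm), 28 in aged and 21 in young libraries. The log2 ratio of mmp13a to the summed TIMP counts, each plus 1, was 8.34, 7.79 and 5.19 in aged (Tm) replicates 1, 2 and 3. It was 0, −0.29, −2 and −0.35 in aged replicates 1 to 4 and 0.42, −1.42, −1.58 and −1.46 in young replicates 1 to 4. In the controls the counts of both were low, with 20 of mmp13a against 28 of the TIMPs in aged and 8 against 21 in young libraries. In each aged (Tm) library mmp13a exceeded the summed TIMPs. The means were 7.11 ± 1.68 in aged (Tm), −0.66 ± 0.91 in aged and −1.01 ± 0.95 in young libraries (SD, n = 3, 4 and 4). These ratios compare counts of 3′ tags, each of which stands for an RNA molecule, and say nothing of protein or of enzyme activity.

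**Figure D3:**
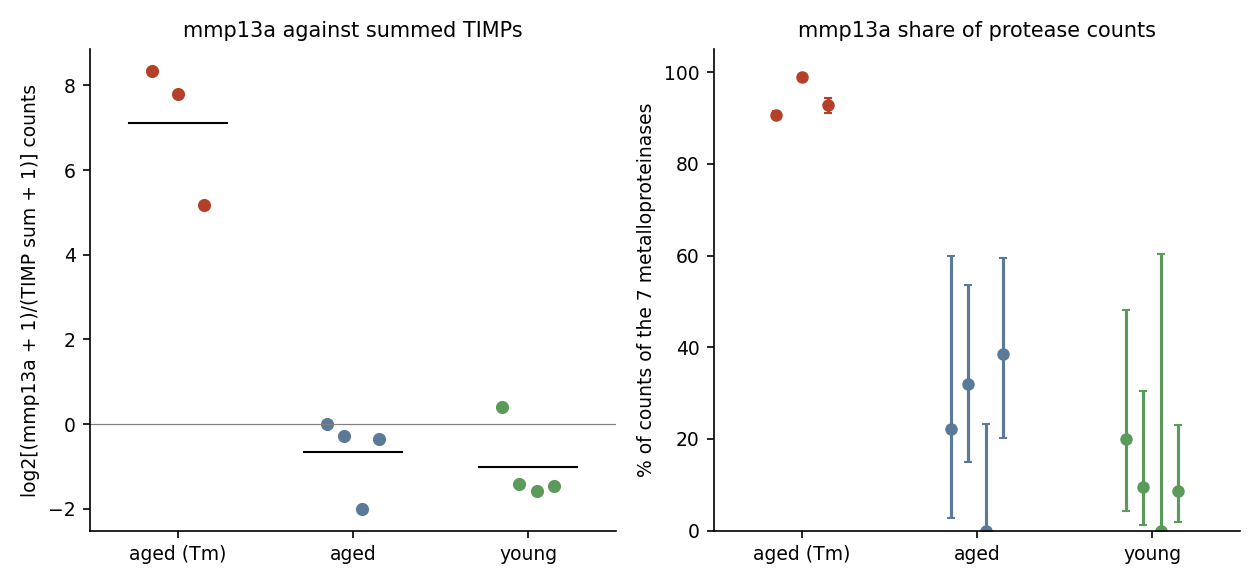
Left, log2 ratio of mmp13a to the summed TIMP counts (each plus 1) in each library, with group means as bars. Right, mmp13a as a percentage of the counts of the 7 metalloproteinases, with exact binomial 95% intervals. The aged (Tm) libraries lie at 5.19 or more and at 90.7% or more, above every aged and young library on both axes.

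Another 12 genes of the table carried a symbol of the same families, and none of them passed the filter on low counts. Among these mmp19 (ENSNFUG00015023686) was singled out after its values were seen, since its 3 aged (Tm) libraries lay above all 8 control libraries, as did those of 673 of the 22954 genes (2.93%). Its aged and young libraries overlapped. It had 14.4, 18.8 and 29.8 CPM in aged (Tm), 0, 7.53, 0 and 11.1 CPM in aged and 9.36, 7.27, 0 and 3.36 CPM in young libraries, from 32, 4 and 3 counts. In the fit with no filter its log2 fold change was 2.34 (SE 0.84) for aged (Tm) over aged and 2.65 (SE 0.89) for aged (Tm) over young, and mmp19 was called higher in both (edgeR, adjusted p = 0.0818 and 0.0661). In the other alternatives mmp19 was not tested, or, in DESeq2, had no adjusted p. mmp20a, named enamelysin for its role in mammalian teeth, had 35 counts in aged (Tm), 10 in aged and 13 in young libraries, and its groups overlapped. In the aged (Tm) libraries mmp13a had the highest level of the family, and the next highest level of any family gene in any library was that of mmp9 in aged (Tm) replicate 1. In the controls it was not the highest: MMP14A averaged 50.7 CPM in aged and 35.2 CPM in young libraries, against 34.7 and 13.2 CPM for mmp13a.

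Genes of the same pathway were taken from lists of other proteases, inhibitors, substrates and regulators, which are not independent of earlier results. Of 178 listed genes 57 were tested, of which 6 rose and 21 fell in aged (Tm) against aged libraries, where 18.5% of all tested genes rose and 20.2% fell. Their median log2 fold change was −1.21, against −0.03 over all tested genes. In aged (Tm) against young libraries 7 rose and 24 fell, where 15.9% of all tested genes rose and 13.2% fell. Against aged libraries 3 rose and 29 fell with total counts alone. With no filter on low counts 17 rose and 3 fell among all 178. The balance over all genes turned the same way, with 370 and 1025 for total counts and 1405 and 173 with no filter. For 21 of the 21 genes that fell, the highest aged value was that of replicate 1 or 3, the 2 smallest aged libraries. Except for thbs2b and CTSBA, the genes that fell passed the filter on low counts only with the control libraries. Of the 6 that rose, areg, atf3, HBEGFA and SERPINE2 passed it only with the aged (Tm) libraries. For both sets, being tested and the difference are therefore not independent. Without the 3 libraries of under 100000 counts, a setting added after the data were seen, 6 rose and 11 fell of 73 tested. Over all 5302 genes tested there, 533 rose and 283 fell. The number called was 10 without aged (Tm) replicate 1 and 11 without replicate 2. Those fits called 457 higher and 308 lower, and 460 and 254, of all 4207 tested genes. After thinning, 7 of the 11 listed genes tested by edgeR fell and 0 rose at the same threshold. Over all 605 genes tested after thinning, 40 rose and 104 fell.

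Among regulators, 3 of the 4 tested transcription factor genes rose in aged (Tm) against aged libraries, where 18.5% of all tested genes rose. In mammals, AP-1 factors bind the promoters of MMP13 and MMP9. FOSL2, an AP-1 subunit, had 663, 357 and 211 CPM in aged (Tm), against 79.7, 102, 97.4 and 133 CPM in aged and 84.2, 87.2, 28.3 and 50.3 CPM in young libraries. Its log2 fold change over aged was 2.41 (SE 0.58, adjusted p = 0.00817). atf3, a stress-induced factor of the same wider family, had 133, 103 and 75.1 CPM in aged (Tm), against 26.6, 71.6, 39.0 and 38.8 CPM in aged libraries (log2 fold change 1.38, SE 0.55, adjusted p = 0.0616). With 29 counts in aged and 9 in young libraries, atf3 passed the filter on low counts through the aged (Tm) libraries. Its being tested and its difference are therefore not independent. FOS rose as well (log2 fold change 4.97, SE 0.93, adjusted p = 0.00178), and was named after its values were seen because its groups overlapped. It had 2436, 749 and 112 CPM in aged (Tm), against 133, 45.2, 39.0 and 27.7 CPM in aged libraries. FOSL2, atf3 and FOS were all highest in aged (Tm) replicate 1 and lowest in replicate 3, the order of mmp13a. This order was held by 18.7% of the 1293 genes of at least 100 CPM. stat3, the other tested factor gene, was not called and had the reverse order, with 28.8, 37.6 and 66.6 CPM. A link of these factors to mmp13a was not tested.

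In the list of growth factors, cytokines and their receptors 4 genes were tested. Of them 2 rose in aged (Tm) against aged libraries, where 18.5% of all tested genes rose. Both genes that rose encode ligands of the EGF receptor, and the other two, LIFRA and EGFRA, encode receptors. areg, which encodes amphiregulin, had 1038, 298 and 62.4 CPM in aged (Tm), against 0, 15.1, 0 and 11.1 CPM in aged and 9.36, 0, 0 and 16.8 CPM in young libraries (edgeR, log2 fold change over aged 5.88, SE 0.95, adjusted p = 0.000659). With 6 counts in aged and 6 in young libraries, areg passed the filter on low counts through the aged (Tm) libraries. As for mmp13a, its being tested and its difference are therefore not independent. HBEGFA had 110, 28.2 and 60.9 CPM in aged (Tm), against 26.6, 15.1, 0 and 22.2 CPM in aged libraries (log2 fold change 2.28, SE 0.75, adjusted p = 0.032). In young libraries HBEGFA had 0, 0, 56.6 and 6.71 CPM, and young replicate 3 lay above aged (Tm) replicate 2. Both ligand genes were named because their aged (Tm) and aged libraries did not overlap, so nothing is read from that gap. For HBEGFA the gap was narrow, 28.2 against 26.6 CPM.

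Of the 15 tested genes for other proteases 8 fell, where 20.2% of all tested genes fell. Of 9 tested ADAM and ADAMTS genes, which encode shedding enzymes and secreted matrix proteases, 6 fell and 0 rose in aged (Tm) against aged libraries by edgeR. Among them ADAMTS18 averaged 44.5 ± 30.2 CPM in aged (Tm) and 216 ± 131 CPM in aged libraries (SD, n = 3 and 4; log2 fold change −1.74, SE 0.55, adjusted p = 0.0266), and ADAMTS20 12.6 ± 6.26 and 69.8 ± 30.3 CPM in the same groups. The symbol ADAM12 belongs to 2 genes of the table, and both fell, with log2 fold changes of −2.68 and −1.98. Both, and ADAM8B, adamts14 and ADAMTS20 of the same 6, stayed at 34.0 CPM or less in aged (Tm). They passed the filter on low counts through the control libraries, ADAM8B through the aged libraries alone. Their being tested and their fall are therefore not independent. Against young libraries 2 of the 9 ADAM and ADAMTS genes fell. Of 6 other tested matrix proteases 2 fell, and CTSD, CTSK and HTRA1B, for example, had log2 fold changes of 0.46, 0.08 and −0.16 and were not called. Of those that fell, fap, a serine protease of activated fibroblasts, averaged 17.8 ± 12.8 CPM in aged (Tm) and 107 ± 20.7 CPM in aged libraries, and CTSBA, a cathepsin B gene, 72.6 ± 24.3 and 230 ± 77.9 CPM. Of the 2 tested genes for activating enzymes, 0 were called by edgeR, and 1, pcsk5b (a proprotein convertase gene), had an unadjusted p below 0.05.

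Among 5 tested inhibitors outside the TIMP family 1 rose and 2 fell, where 18.5% of all tested genes rose and 20.2% fell. With so few tested, nothing is read from these counts. SERPINE2, which encodes an inhibitor of serine proteases, had 121, 84.6 and 52.4 CPM in aged (Tm), against 26.6, 45.2, 39.0 and 33.3 CPM in aged libraries (log2 fold change 1.52, SE 0.52, adjusted p = 0.0364). In young libraries SERPINE2 had 46.8, 50.9, 56.6 and 40.3 CPM, and young replicate 3 lay above aged (Tm) replicate 3. Against young libraries it was called higher (edgeR, log2 fold change 1.25, adjusted p = 0.0836). thbs2a and thbs2b encode thrombospondin 2, which in mice binds MMP2 for removal. thbs2a averaged 5.87 ± 5.68 CPM in aged (Tm) and 86.7 ± 62.2 CPM in aged libraries, and thbs2b 111 ± 76.6 and 532 ± 316 CPM. Against young libraries thbs2a was called lower (edgeR, log2 fold change −2.10, adjusted p = 0.0841). thbs2b was not called there (edgeR, log2 fold change −0.94, adjusted p = 0.244).

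Substrate genes that were called had all fallen. They were 3 of 6 fibrillar collagen genes, 5 of 8 basement membrane genes and 3 of 13 other matrix genes. The last is a share near that of all tested genes, of which 20.2% fell. COL2A1A had 5.76, 9.40 and 8.50 CPM in aged (Tm), against 106, 64.0, 195 and 49.9 CPM in aged libraries (log2 fold change −3.13, SE 0.77, adjusted p = 0.00906). COL11A1B and COL2A1 fell, with log2 fold changes of −2.10 and −1.97. COL4A6, a basement membrane collagen gene, averaged 16.2 ± 14.1 CPM in aged (Tm) and 68.2 ± 43.7 CPM in aged libraries. In young libraries COL4A6 had 18.7, 21.8, 113 and 73.8 CPM, which overlapped the aged (Tm) libraries. The other basement membrane genes that fell were COL4A1, COL4A3, LAMB1 and LAMB2, named after their values were seen. FBN1, which encodes fibrillin, vcana, which encodes versican, and COL14A1, a fibril-associated collagen gene, fell as well, with log2 fold changes of −2.44, −2.11 and −1.49. Against young libraries 5 of 6 fibrillar collagen, 5 of 8 basement membrane and 8 of 13 other matrix genes fell, where 13.2% of all tested genes fell. COL4A6, COL4A3 and COL14A1 were not called there (edgeR, adjusted p = 0.150, 0.225 and 0.208). The 8 osteoblast markers summed to 20.2 to 66.6 CPM in aged (Tm) and 139 to 319 CPM in aged libraries, with no overlap. The 10 fibroblast markers summed to 277 to 985 CPM in aged (Tm) and 701 to 1759 CPM in aged libraries, which overlapped, and without COL1A2 and col1a1b to 86.5 to 198 and 288 to 409 CPM, which did not. Their part in the matrix genes was not tested.

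In aged against young libraries 3 of the 57 tested listed genes fell and none rose by edgeR, where 0.631% of all tested genes fell and 0.0757% rose. htra1a, which encodes a secreted serine protease, had 26.6, 26.4, 39.0 and 33.3 CPM in aged libraries, against 243, 189, 311 and 128 CPM in young libraries (log2 fold change −2.75, SE 0.54, adjusted p = 0.0237). COL1A2 and col1a1b, the chains of the main collagen cut by collagenases, averaged 500 ± 334 and 180 ± 131 CPM in aged and 5285 ± 810 and 2355 ± 948 CPM in young libraries. The log2 fold change of COL1A2 was −3.39 (SE 0.76), at an adjusted p of 0.0371, and that of col1a1b −3.67 (SE 0.76), at an adjusted p of 0.0283. The fibroblast markers include both genes, which made up 65.3% of the list's mean level in aged and 93.6% in young libraries. The other 8 summed to 288 to 409 CPM in aged and 283 to 767 CPM in young libraries, and the skeletal muscle markers to 5548 to 23450 and 22078 to 88927 CPM. Without aged replicate 3 the number of listed genes called was 1, and without aged replicate 4 it was 0, as it was in a fit of the aged and young libraries alone. In these 8 libraries mmp13a had 0 to 10 counts.

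**Figure D4:**
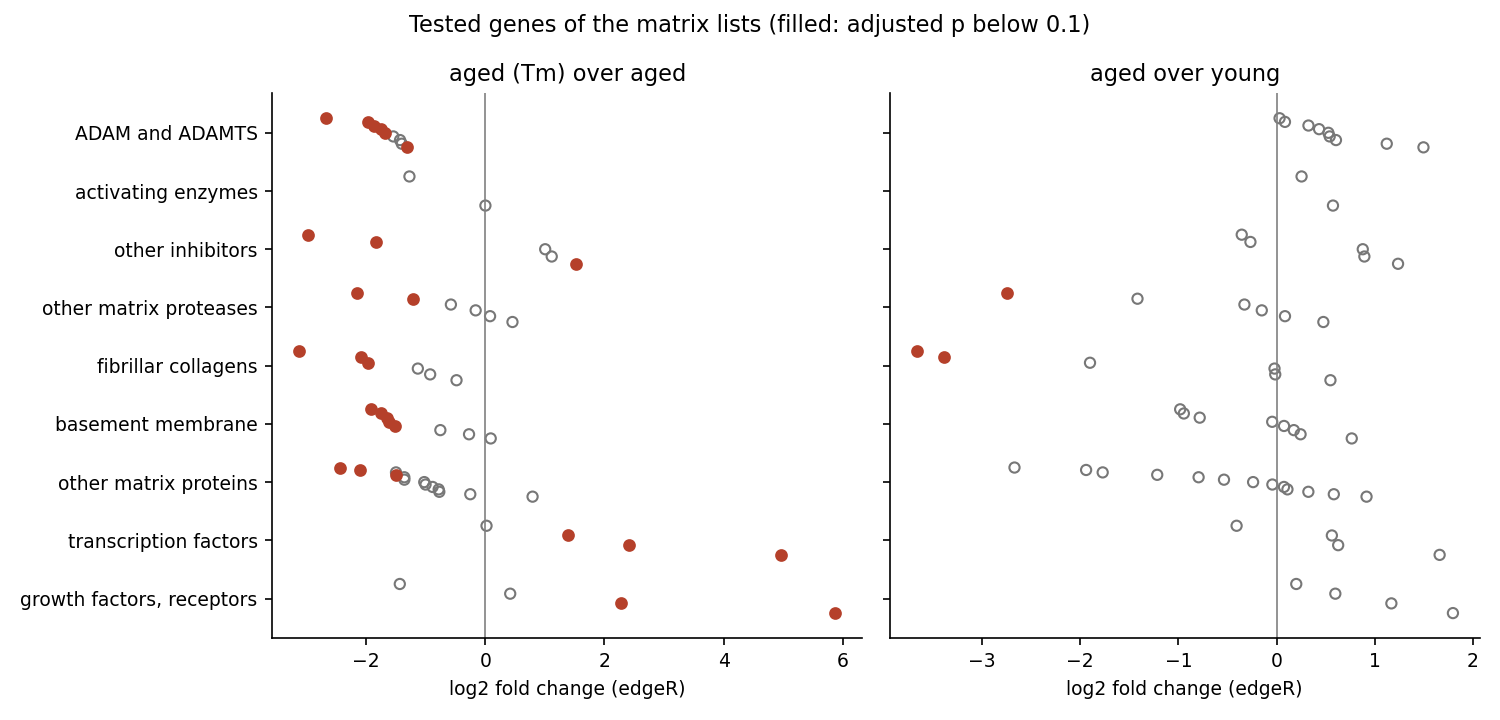
log2 fold changes (edgeR, horizontal axis) of the 57 tested genes of the lists, left for aged (Tm) over aged and right for aged over young, where each circle is a gene and filled circles had an adjusted p below 0.1. On the left the filled circles of the ADAM and ADAMTS, collagen, basement membrane and other matrix lists lie below 0 and those of the transcription factors and growth factors above it, and on the right 3 filled circles lie below 0.

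The genes most like mmp13a across the 11 libraries were found by Pearson's r of log2 CPM with TMM scaling and a prior count of 2. They were HDAC6 (r = 0.98), which encodes a cytoplasmic deacetylase, HDAC1 (ENSNFUG00015020889, r = 0.96), CHAC1 (ENSNFUG00015002384, r = 0.96), which encodes an enzyme that degrades glutathione, NARS (r = 0.96), which encodes asparaginyl-tRNA synthetase, and GRWD1 (r = 0.96), which encodes a protein of ribosome assembly. The symbols HDAC1 and CHAC1 each belong to 2 genes of the table. The libraries fall into aged (Tm) and control libraries, so r describes mostly that gap. Over the 8 control libraries alone it was 0.82, 0.82, 0.53, 0.51 and 0.73 for the 5 genes in the order given. There mmp13a had 0 to 10 counts per library, and NARS had 8 counts in all aged and 9 in all young libraries. These values of r thus rest on very few counts, and nothing is read from them.

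HDAC6 had 5234, 3324 and 835 CPM in aged (Tm) replicates 1, 2 and 3, the order of mmp13a, against 133, 166, 58.5 and 194 CPM in aged and 159, 72.7, 56.6 and 161 CPM in young libraries. CHAC1 had 4793, 5943 and 1341 CPM in aged (Tm), against 106, 207, 175 and 316 CPM in aged and 290, 153, 84.8 and 191 CPM in young libraries. NARS had 764, 617 and 166 CPM in aged (Tm), against 0, 22.6, 0 and 11.1 CPM in aged and 28.1, 0, 0 and 20.1 CPM in young libraries. These 3 genes shared the low level in aged (Tm) replicate 3 with mmp13a. HDAC1 did not: its CPM were 375, 373 and 381 in aged (Tm), against 212, 124, 58.5 and 139 CPM in aged libraries. GRWD1 averaged 177 ± 90.2 CPM in aged (Tm), 12.2 ± 10.9 CPM in aged and 16.2 ± 16.4 CPM in young libraries (SD, n = 3, 4 and 4).

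**Figure D5:**
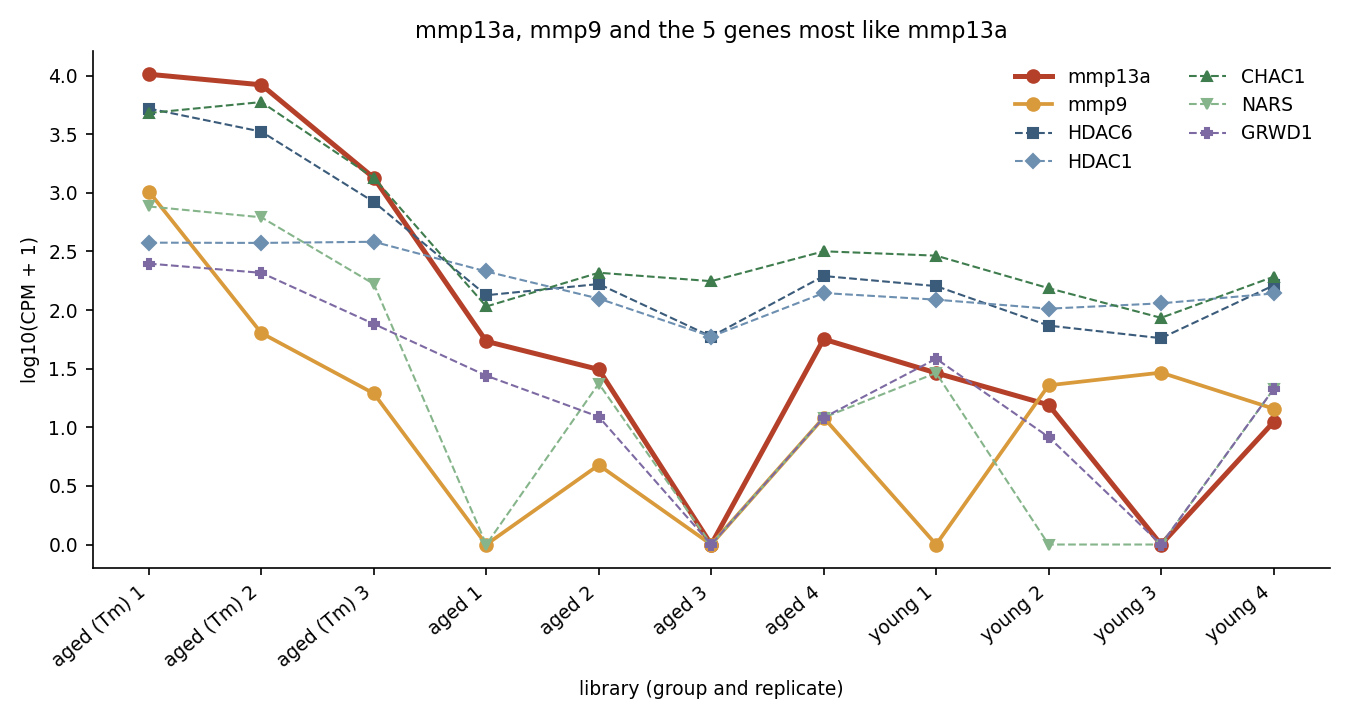
Levels (log10 of CPM plus 1) of mmp13a, mmp9 and the 5 genes most like mmp13a in each of the 11 libraries, where lines join the values of a gene only as a guide to the eye. mmp13a, HDAC6, NARS, GRWD1 and mmp9 are highest in aged (Tm) replicate 1 and lowest of their group in replicate 3, and HDAC1 is level across the 3 aged (Tm) libraries.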

How the data were processed

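The deposited table holds UMI counts per gene without normalization, which the authors made by splitting the sequences by barcode with UMI-tools 1.0.0, mapping them with HISAT2 2.1.0 and assigning them to genes with featureCounts 1.6.4, versions as in the submitters' processing notes, which also name DESeq2 1.20.0. The genome build and the UMI length are not given in the sources used here. Columns were matched to groups by name. Total counts of 35366 to 705538 per library limit the precision.

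The members and lists were chosen with earlier results of these data known. Members were the symbols of the family, with or without a final a or b. Up to 4 genes per list were named, those past the threshold in aged (Tm) against aged or aged against young whose groups did not overlap in CPM and with the largest log2 fold changes, and the 5 genes with a symbol and the highest r with mmp13a. Counts were fitted with edgeR 4.0.16 (quasi-likelihood, two-sided, TMM, filterByExpr by group, Benjamini-Hochberg over all tested genes, threshold 0.1) in R 4.3.3 on all 11 libraries. Each SE of an edgeR log2 fold change was calculated as its absolute value over the square root of the F statistic. These SEs are therefore approximate. Summed counts were compared with exact conditional 95% intervals for a ratio of Poisson rates. Alternatives were RLE and total count scaling, no filter, a filter of 10 counts in 3 libraries, DESeq2 1.42.0, limma voom (3.58.1), fits of only the groups compared, thinning, a threshold of 0.05, a replicate block and leaving out each library. Sequences of the genes were not used here, nor was a reference genome. Python 3.11.15 and matplotlib 3.10.9 were used for the figures.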

Additional observations from a re-analysis of the deposited data

Results flagged for a closer look

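Groups of 4 libraries were examined for the 10 genes and for the log2 ratio of mmp13a to the TIMPs. Of these 22 groups, 6 had a highest or lowest library far from the others by Dixon's 95% criterion. Most of the 6 flagged values rest on 0 to 3 counts. The criterion's rate of about 1 in 20 groups is for normally distributed values and does not apply to counts this low. A group with counts in only 1 library always meets it, so no excess is read from 6 of 22.

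mmp2 stood at 58.5 CPM and mmp11a at 39.0 CPM in aged replicate 3, above the other aged libraries. MMP14A was at 0 CPM in young replicate 3, below the other young libraries. mmp11a stood at 3.36 CPM in young replicate 4 and TIMP2A at 28.3 CPM in young replicate 3, each the only young library with a count of the gene. The log2 ratio of mmp13a to the TIMPs was 0.42 in young replicate 1, above the other young libraries.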

How the results depend on the processing

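The log2 fold change of mmp13a kept its direction under every alternative that tested it, between 5.99 (thinned) and 8.83 (without aged (Tm) replicate 3) for aged (Tm) over aged, 7.96 and 10.1 for aged (Tm) over young, and 0.87 and 1.98 for aged over young. A fit of the aged and young libraries alone did not test mmp13a. The difference of the log2 ratio of mmp13a to the TIMPs between aged (Tm) and aged libraries lay between 7.15 and 8.73. Of the 10 genes, the number called in aged (Tm) against aged and against young libraries was 2 in place of 1, with mmp9 the second, with no filter, with a filter of 10 counts in 3 libraries, with DESeq2 and without the libraries of under 100000 counts, a setting added after the data were seen. Against aged libraries these fits, in that order, called 1405 of 22954, 849 of 4190, 1513 of 22948 and 533 of 5302 genes higher. Against young libraries they called 1057, 794, 1397 and 877 higher. No control library held more than 4 counts of mmp9, so it passed the filter of 10 counts only through the aged (Tm) libraries. There its being tested and its difference are not independent, and nothing is read from the call. Leaving out each library gave 1 to 1 of the 10 genes in both, and 0 to 0 in aged against young libraries. The fits that left out a library tested only 1 or 2 of the 10 genes.

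Of the listed genes, thinning left 7 called against aged and 8 against young libraries, and leaving out the small libraries 17 against aged. Over all 605 genes tested, thinning left 40 higher and 104 lower against aged, and 58 and 117 against young libraries. Leaving out the small libraries left 533 higher and 283 lower of 5302 against aged. In aged against young libraries DESeq2 called 5 and the fit of both groups alone 0. Leaving out each library gave 10 to 33 calls in aged (Tm) against aged, 10 to 35 in aged (Tm) against young and 0 to 4 in aged against young libraries. Calls over all genes changed as well. Against aged libraries they were 457 higher and 308 lower of 4207 without aged (Tm) replicate 1, which gave the 10 calls. Without young replicate 1, which gave the 33, they were 897 and 947 of 4678. The cause of these changes in number was not tested, except that thinning and leaving out libraries change the number of genes tested. Replicate numbers did not pair the libraries (correlations of same-numbered libraries from −0.509 to 0.376), and a replicate block gave 28 listed genes against aged, 3 for aged against young and 24 against young, 1, 0 and 1 of the 10 genes, and a log2 fold change of mmp13a of 8.26 over aged. Low counts limit the 9 genes other than mmp13a, which had 5 to 399 counts in all.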
